A study of Homo sapiens with 6 samples.

Results

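Genes of the interstitial matrix and of collagen processing were followed by name through RNA sequencing of 2 established human cell lines derived from bladder cancer, T24 and UMUC3, with and without knockdown of circPTK2, a circular RNA of the PTK2 locus. The set holds 38 genes chosen by symbol: 5 fibrillar collagen chains, 9 other collagen chains, 11 glycoproteins, 3 proteoglycans, 4 crosslinking enzymes, and 6 collagen hydroxylases with the collagen chaperone among them. Of these, 37 were in the count table, DCN having no row, out of 30717 genes in all. COL1A2 and FBN2 did not reach the minimum count, so 35 members were tested, out of 20721 genes.

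Each line gave 1 control library and 2 knockdown libraries, for 6 in total. The groups are T24 control cells, T24 cells with circPTK2 knockdown by siRNA 1 or 2, UMUC3 control cells, and UMUC3 cells with the same knockdown. No time point or dose is stated. Sample titles speak of siRNAs and the series' design text of sh constructs, so the kind of reagent is not settled, and knockdown libraries are numbered here as in the titles.

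Total counts per library were 65111683 to 72362436. By their titles the 2 knockdown libraries of a line carry different siRNAs, 1 library each. Their spread holds any difference between the siRNAs together with technical variation, and no siRNA was repeated within a line. On it rest the p-values of each line's knockdown comparison and of the difference between lines. For both lines together and for T24 against UMUC3, the spread also holds any difference between the lines in the knockdown effect. The paired knockdown libraries differed by far more than counting noise, with a chi-square per degree of freedom of 112.3 in T24 and 108.2 in UMUC3. The epithelial list of 19 had 17 in the table, 9 of them over 1 CPM (counts scaled to library size) in T24 and 5 in UMUC3. These markers summed to 3302 to 3483 CPM in T24 and to 178.8 to 199.6 CPM in UMUC3, and CDH1 was at 0 in 5 of the 6 libraries. Much of the T24 sum was keratin, with KRT8 at 1691, 1558 and 1481 CPM in the control and knockdown libraries. Within that sum KRT18 went from 835 to 424 and 389 CPM, and KRT7 from 171 to 480 and 708 CPM. Of 10 fibroblast and stromal markers 7 were in the table, summing to 3.63 to 4.34 CPM in T24 and 17.75 to 21.63 CPM in UMUC3, where THY1 gave 10.2 to 11.6 CPM. The immune list of 6 had 3 in the table, with PTPRC at or near 0 and CD68 at 28.2, 54.1 and 51.2 CPM in the UMUC3 control and knockdown libraries, and the endothelial list of 5 had 4, summing to 65.27 to 76.99 CPM in T24, nearly all of it CDH5. The part of CD68-expressing or other cells in the results was not tested. The targeted circular RNA shares exons with linear PTK2, so its knockdown was not checked.

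The interstitial matrix is the fibrous network between cells. Fibrillar collagens form its cables, other collagens and glycoproteins such as fibronectin and fibrillin link the cables to one another and to cells, and proteoglycans bind water and growth factors. Inside the cell, prolyl and lysyl hydroxylases modify collagen chains, the chaperone SERPINH1 (HSP47) accompanies the triple helix, and outside the cell lysyl oxidases crosslink the fibres. In carcinomas most interstitial collagen is made by stromal fibroblasts, and carcinoma cells make a part of it.

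Promoter stretches of 5 members are shown first, because THBS1, FBN1, COL5A1 and POSTN stood above the control in all 4 knockdown libraries, and COL12A1 stood above it in T24 and below it in UMUC3. They are RefSeq sequences of build GRCh38.p14, the bases ahead of the gene start that this table gives, 5′ to 3′ on the gene's strand and without annotated exons. For FBN1 that start lies inside the gene span of GENCODE, so its stretch is not ahead of the GENCODE start. Capitals mark matches on either strand to 4 short motifs, of which neighbouring matches can touch or overlap. The GC box was searched as GGGCGG. For the CCAAT box the letters of its name were used. The TATA box was searched as TATAAA. For the motif of the AP-1 transcription factors TGANTCA was used.

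The THBS1 stretch (chr15:39580829-39581078, plus strand) has 4 GC boxes and 1 CCAAT box.
THBS1: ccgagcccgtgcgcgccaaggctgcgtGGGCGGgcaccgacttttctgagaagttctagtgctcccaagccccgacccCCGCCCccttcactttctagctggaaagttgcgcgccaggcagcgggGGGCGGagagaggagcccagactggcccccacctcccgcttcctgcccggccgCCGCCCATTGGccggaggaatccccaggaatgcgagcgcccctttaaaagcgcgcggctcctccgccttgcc

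The FBN1 stretch (chr15:48644971-48645220, minus strand) has none of these letters.
FBN1: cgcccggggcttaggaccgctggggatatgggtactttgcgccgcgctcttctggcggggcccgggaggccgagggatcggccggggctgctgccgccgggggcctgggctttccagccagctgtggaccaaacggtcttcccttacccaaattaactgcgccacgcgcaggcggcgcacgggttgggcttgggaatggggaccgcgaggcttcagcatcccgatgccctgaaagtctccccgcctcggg

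The COL5A1 stretch (chr9:134641553-134641773, plus strand) has 2 GC boxes.
COL5A1: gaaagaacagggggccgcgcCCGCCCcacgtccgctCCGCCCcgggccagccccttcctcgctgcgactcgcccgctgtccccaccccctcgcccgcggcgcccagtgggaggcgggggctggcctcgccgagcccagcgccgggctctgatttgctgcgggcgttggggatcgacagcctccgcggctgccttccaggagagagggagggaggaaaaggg

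The POSTN stretch (chr13:37598845-37599018, minus strand) has 1 TATA box and 1 AP-1 motif.
POSTN: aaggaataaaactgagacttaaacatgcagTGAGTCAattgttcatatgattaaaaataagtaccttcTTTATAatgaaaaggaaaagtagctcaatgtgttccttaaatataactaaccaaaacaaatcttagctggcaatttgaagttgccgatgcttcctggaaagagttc

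The COL12A1 stretch (chr6:75206054-75206303, minus strand) has 1 GC box.
COL12A1: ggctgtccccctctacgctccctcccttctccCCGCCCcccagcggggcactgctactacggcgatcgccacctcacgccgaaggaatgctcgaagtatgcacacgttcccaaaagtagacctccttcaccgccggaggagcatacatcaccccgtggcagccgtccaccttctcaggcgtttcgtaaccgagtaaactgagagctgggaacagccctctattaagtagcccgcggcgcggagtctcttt

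No motif was in all 5 stretches. The table of RefSeq promoters used here matched 29 of the 38 members. Over the 250 bases ahead of the start, a GC box was in 65.5% of those 29 and in 42.3% of all 27305 promoters, and a CCAAT box in 20.7% against 33%. A TATA box was in 20.7% against 11.1%, and an AP-1 motif in 3.45%, which is POSTN alone, against 6.6%. The median observed-to-expected CpG ratio was 0.681 in the members and 0.556 in all promoters. A match is a run of letters and not a measured site.

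The first question was what the lines make. In bulk RNA, fewer cells making a transcript and less of it per cell cannot be told apart, here and in all results that follow. In the T24 control the members summed to 7543 CPM, and in the UMUC3 control to 1901 CPM. FN1, the gene of fibronectin, was the most abundant member in T24 with 26.7% of that sum, followed by EFEMP1, THBS1 and COL12A1. In UMUC3 the list was led by LOXL2 with 21.4%, SPARC with 19.6%, PLOD2 with 12.6% and PLOD1 with 11.9%. In CPM, which is not divided by length, T24 thus carried structural glycoproteins and a long collagen in front, and UMUC3 enzymes and SPARC. Divided by transcript length (TPM), the T24 control order was FN1 at 929, EFEMP1 at 610, SPARC at 306, SERPINH1 at 301 and LOXL2 at 299. THBS1 was at 151 TPM and COL12A1 at 145 TPM, so that order also had SPARC, the chaperone and an enzyme near the front.

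**Figure D1:**
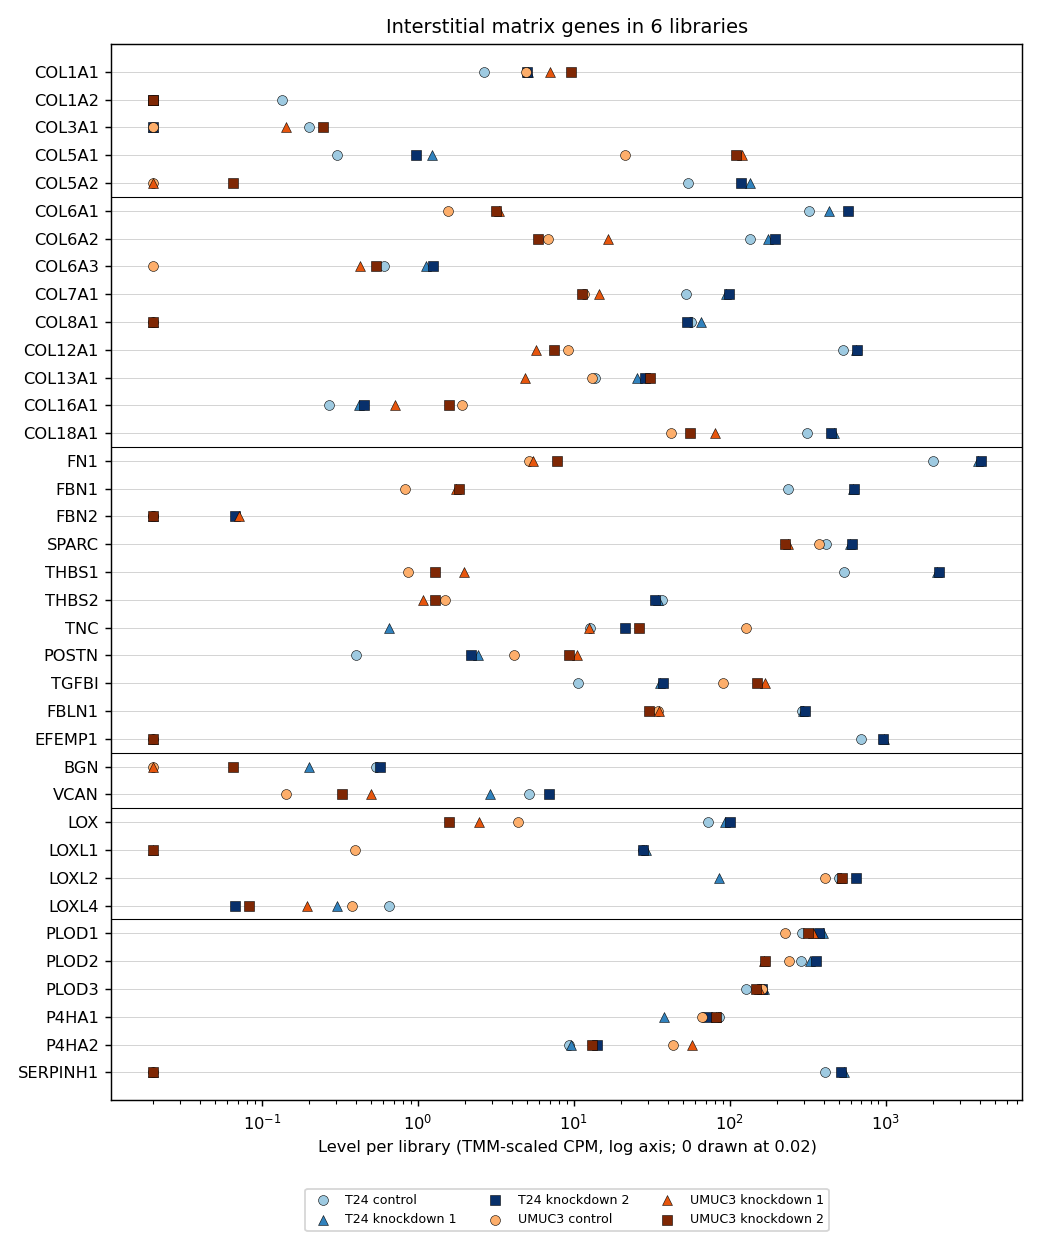
Level of each measured member in each library, in CPM on a log axis, with 1 point per library, circles for controls, triangles and squares for knockdown libraries 1 and 2, blue for T24 and orange for UMUC3, and horizontal lines between roles. FN1, FBN1, THBS1, EFEMP1 and SERPINH1 lie far to the right in T24 only, PLOD1 and PLOD3 overlap between the lines, and LOXL2 in T24 knockdown library 1 lies apart at 85.2 CPM.

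Between the lines, 25 of 35 members passed an adjusted p of 0.05 in edgeR's quasi-likelihood test over all libraries with Benjamini-Hochberg adjustment, where 40.2% of all genes did. Of these 20 were higher in T24 and 5 in UMUC3, against a background of 21.3% and 18.9% of all genes. Every T24 library stood above every UMUC3 library for 21 members (background 27.2%), and the reverse held for 4 (background 25.1%). The median log2 difference of the members was 2.67, and that of all genes 0.02.

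FBN1 (ENSG00000166147, GRCh38 chromosome 15, 48408306 to 48645849, minus strand) encodes fibrillin-1, the backbone of microfibrils. It was at 237, 622 and 626 CPM in the T24 control and knockdown libraries and at 0.824, 1.77 and 1.84 CPM in UMUC3. The ranges of the lines were far apart, and the log2 difference was 8.36 ± 0.14 (SE, 3 libraries a line, edgeR adjusted p = 6.94e-06). FN1 gave 2012, 3909 and 4091 CPM in T24 and 5.14, 5.51 and 7.83 CPM in UMUC3, a log2 difference of 9.03 ± 0.24. THBS1 (ENSG00000137801, chromosome 15, 39581079 to 39599466, plus strand) is thrombospondin-1, a matricellular protein that binds CD47 and activates latent TGF-beta. It gave 541, 2127 and 2205 CPM in T24 and 0.859, 1.98 and 1.3 CPM in UMUC3, a log2 difference of 10.10 ± 0.30.

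EFEMP1, SERPINH1 and COL8A1 were high in T24 and at 0 counts in all UMUC3 libraries. EFEMP1, a fibulin of elastic fibres, was at 698, 973 and 957 CPM in T24, at least 16790-fold higher on a floor of 3 counts per library. SERPINH1 (ENSG00000149257, chromosome 11, 75562056 to 75572783, plus strand), the collagen chaperone, was at 407, 539 and 520 CPM, at least 9363-fold higher, and the collagen chain COL8A1 at 56.4, 65.7 and 53.5 CPM, at least 1122-fold higher. Transcripts without a gene held 14.86 to 16.10% of each library's counts, and whether reads of these genes lie there in UMUC3 was not tested. P4HB and PPIB, which also act in collagen folding, were at 317 to 608 CPM and 457 to 673 CPM in UMUC3.

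The other members that were higher in T24 had values in both lines. COL12A1, a collagen that decorates the surface of fibrils, was at 531, 649 and 659 CPM in T24 and 9.20, 5.72 and 7.52 CPM in UMUC3 (log2 difference 6.36 ± 0.24). COL18A1, the source of endostatin, was at 311, 465 and 446 CPM against 42.0, 80.6 and 55.5 CPM (2.79 ± 0.17). COL7A1, the anchoring fibril collagen, was at 52.2, 95.3 and 98.7 CPM against 11.6, 14.5 and 11.2 CPM (2.67 ± 0.22). In these 3 genes the ranges of the lines were apart in every library.

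FBLN1, fibulin-1, was at 289, 297 and 305 CPM in T24 and at 34.8, 35.2 and 30.3 CPM in UMUC3, a log2 difference of 3.15 ± 0.12. THBS2, a relative of THBS1, was at 36.8, 34.6 and 33.0 CPM against 1.49, 1.09 and 1.3 CPM (4.75 ± 0.20). Of the proteoglycans VCAN, versican, was at 5.18, 2.92 and 6.98 CPM against 0.143, 0.499 and 0.328 CPM (3.96 ± 0.57), and BGN, biglycan, at 0.539, 0.202 and 0.572 CPM against 0, 0 and 0.0657 CPM. Both calls rest on few counts, and that of BGN was lost without any 1 of 3 knockdown libraries.

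Among the crosslinking enzymes LOX was at 72.7, 93.0 and 101 CPM in T24 and 4.42, 2.46 and 1.59 CPM in UMUC3 (log2 difference 5.02 ± 0.39). LOXL1 was at 27.6, 28.9 and 27.8 CPM in T24, and in UMUC3 at 0.394 CPM in the control and at 0 in both knockdown libraries. LOXL2 did not separate the lines, at 500, 85.2 and 648 CPM in T24 and 406, 517 and 525 CPM in UMUC3. LOXL4 was at 0.656, 0.303 and 0.0673 CPM in T24 and 0.376, 0.196 and 0.0821 CPM in UMUC3. LOXL2 was the 1 crosslinking enzyme above 10 CPM in UMUC3.

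Of the lysyl hydroxylases, PLOD1 and PLOD3 had overlapping ranges in the lines. PLOD1 was at 291, 395 and 374 CPM in T24 and 227, 341 and 317 CPM in UMUC3, overlapping ranges with an adjusted p of 0.0591. PLOD3 was at 126, 166 and 161 CPM against 162, 153 and 149 CPM, and the prolyl hydroxylase subunit P4HA1 at 86.0, 37.9 and 71.7 CPM against 66.6, 82.2 and 82.0 CPM. P4HA2, its paralog, was at 9.34, 9.56 and 14.1 CPM against 43.1, 56.9 and 13.1 CPM (adjusted p = 0.0589), the values of UMUC3 knockdown library 2 lying within the T24 range.

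PLOD2 (287, 329 and 358 CPM against 239, 166 and 169 CPM) and SPARC passed the test with log2 differences of 0.78 ± 0.18 and 0.97 ± 0.27. SPARC (ENSG00000113140, chromosome 5, 151661096 to 151687165, minus strand), a collagen-binding glycoprotein, was at 414, 594 and 612 CPM in T24 and 373, 238 and 227 CPM in UMUC3. Both calls were lost when any 1 of the 4 knockdown libraries was left out, and those of COL1A1 and COL16A1 with any of 3.

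Higher in UMUC3 were 5 members. COL5A1 (ENSG00000130635, chromosome 9, 134641774 to 134844843, plus strand) was at 0.303, 1.23 and 0.976 CPM in T24 and 21.5, 119 and 109 CPM in UMUC3 (log2 difference -6.60 ± 0.21). TGFBI, a TGF-beta induced adhesion protein, was at 10.6, 35.8 and 37.2 CPM against 90.9, 168 and 149 CPM (-2.43 ± 0.23), and POSTN, periostin, at 0.404, 2.44 and 2.19 CPM against 4.15, 10.5 and 9.38 CPM (-2.35 ± 0.30). COL16A1 stayed under 2 CPM in all libraries (0.269, 0.420 and 0.454 CPM against 1.93, 0.713 and 1.59 CPM). COL1A1 was at 2.64, 5.08 and 5.03 CPM against 4.94, 7.04 and 9.66 CPM, ranges that overlap (-0.78 ± 0.23).

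Chains of 1 collagen type were not matched within a line. Levels per length are given here as TPM, which divides each transcript's counts by its length before scaling. Type V collagen combines COL5A1 and COL5A2 in its common form. COL5A2 was at 17.0, 75.7 and 38.1 TPM in T24, 114 to 231 times the COL5A1 level, while in UMUC3 COL5A1 was at 5.97, 28.1 and 27.5 TPM and COL5A2 at 0, 0 and 0.0182 TPM. In CPM, COL5A2 was at 54.2, 136 and 118 in T24. The 75.7 TPM of knockdown library 1 holds 854 counts on a retained-intron transcript of 704 bases, ENST00000470524, with 29 in the control and 105 in library 2. Counts on so short a transcript weigh heavily in TPM. The protein-coding ENST00000374866 had 3191, 7220 and 6882 counts, so the TPM values and ratios are those of gene sums.

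**Figure D2:**
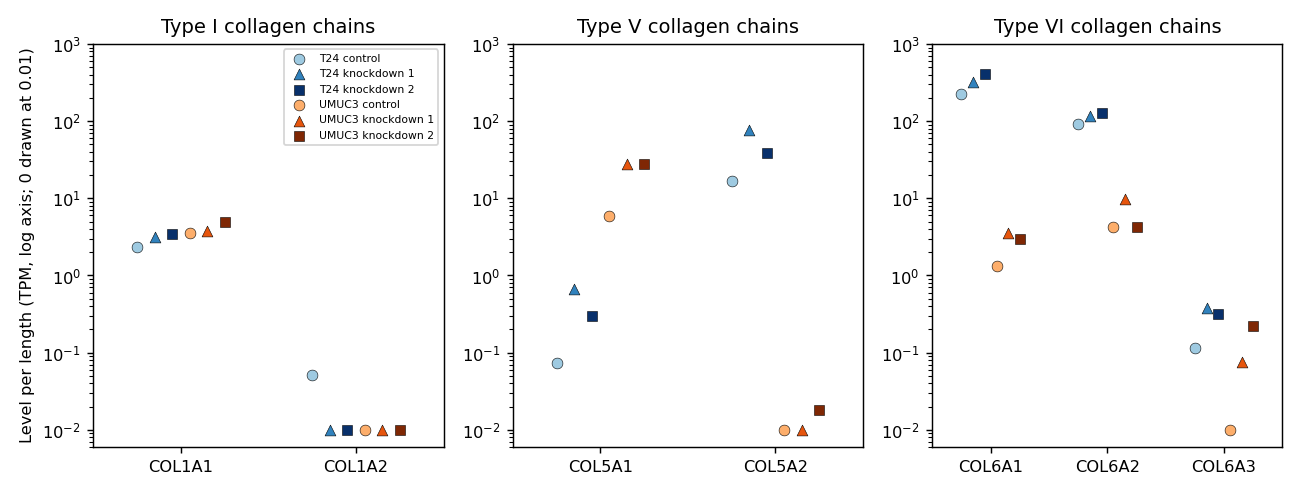
Level per length of the chains of type I, V and VI collagen in TPM on a log axis, 1 point per library with the same symbols and colours as before. COL5A2 is high in T24 and at or near 0 in UMUC3, COL5A1 the reverse, and COL6A3 and COL1A2 lie low in both lines.

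Type VI collagen is built from COL6A1, COL6A2 and a further chain, commonly COL6A3. COL6A1 was at 321, 430 and 573 CPM in T24 and 1.56, 3.32 and 3.19 CPM in UMUC3 (log2 difference 7.39 ± 0.20), and COL6A2 at 134, 177 and 195 CPM against 6.88, 16.7 and 5.93 CPM (4.12 ± 0.41). COL6A3 was at 0.116, 0.382 and 0.319 TPM in T24, where COL6A2 was 308 to 783 times higher per length. By gene sums COL6A3 was the low chain of type VI in both lines. Of the COL6A1 counts, 54.75 to 68.26% in T24 and all in UMUC3 lay on transcripts that are not of the protein-coding type, mostly 1 processed transcript. On protein-coding transcripts in UMUC3, COL6A1 had 0 counts in every library and COL6A3 had 0, 24 and 30, so the gene sums do not rank these chains there.

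COL1A2, the partner of COL1A1 in type I collagen, was at 0.0510 TPM in the T24 control and at 0 in the other 5 libraries, and COL3A1 had at most 0.0874 TPM. FBN2 had no more than 0.0713 CPM in any library.

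The second question was what knockdown of circPTK2 changed. In T24, FBN1 was the 1 member past an adjusted p of 0.05 in edgeR, with a higher value, where 0.135% of all genes passed in either direction. FBN1 went from 237 CPM in the control to 622 and 626 CPM, with the paired libraries nearly equal. Its log2 fold change was 1.39 ± 0.09 (SE, edgeR quasi-likelihood, adjusted p = 0.0491). When any 1 knockdown library of either line was left out, the log2 change of FBN1 was 1.39 to 1.40. Its call was lost then, as was that of every other gene called in T24, so this loss is not particular to FBN1.

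Of the T24 members, 15 had an unadjusted p under 0.05 with a higher value and 0 with a lower one, against a background of 6.6% and 5.94% of all genes. Both knockdown libraries lay above the control for 26 of 35 members and below it for 4, against 34.7% and 37.3% of all genes. The median log2 change of the members was 0.41, and that of all genes 0. DESeq2 called 9 members, all higher, among 980 genes, and voom 0. The share of named counts held by the members was 0.764% in the control and 1.21% and 1.31% after knockdown.

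Among the glycoproteins, THBS1 went from 541 to 2127 and 2205 CPM, 3.93 and 4.08 times the control (log2 change 2.00 ± 0.20, adjusted p = 0.0890 in edgeR). TGFBI went from 10.6 to 35.8 and 37.2 CPM (1.78 ± 0.15, adjusted p = 0.0734), and POSTN from 0.404 to 2.44 and 2.19 CPM (2.51 ± 0.43, adjusted p = 0.157). FN1 was at 1.94 and 2.03 times its control (0.99 ± 0.21, adjusted p = 0.235). All 4 genes had both libraries well above the lone control without passing the threshold.

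Among the T24 collagens, COL5A1 was at 4.05 and 3.22 times its control on a level near 1 CPM (log2 change 1.85 ± 0.38), and COL5A2 at 2.5 and 2.17 times (1.22 ± 0.29). COL7A1 was at 1.83 and 1.89 times (0.90 ± 0.21) and COL6A1 at 1.34 and 1.78 times (0.64 ± 0.20). The processing genes had smaller values, with log2 changes of 0.40 ± 0.09 for PLOD1, 0.37 ± 0.10 for PLOD3 and 0.38 ± 0.10 for SERPINH1. SPARC had 0.54 ± 0.08 and EFEMP1 0.47 ± 0.08. None of these 9 passed the threshold, with adjusted p from 0.128 to 0.337. The higher COL7A1 value lay in a retained-intron transcript, ENST00000487017, with 1065 counts in the control and 4054 and 3879 after knockdown, while the protein-coding ENST00000328333 had 1818, 1039 and 1549 counts. EFEMP1 had 24799, 53707 and 56291 counts on its protein-coding ENST00000394555, and 16152, 2 and 2 on ENST00000635671, a transcript of the nonsense-mediated decay type. COL6A1 had 8624, 8032 and 15273 counts on its protein-coding ENST00000361866, and 10405, 17371 and 18184 on ENST00000498614, a processed transcript. Its protein-coding count in knockdown library 1 thus lay below the control.

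In UMUC3, COL5A1 was the 1 member past the adjusted threshold, with a higher value, where 0.647% of all genes passed in either direction. It went from 21.5 CPM to 119 and 109 CPM, 5.56 and 5.09 times the control, and both libraries lay far above it. The log2 fold change was 2.41 ± 0.19 (edgeR adjusted p = 0.0446). Without any 1 knockdown library of either line the log2 change was 2.35 to 2.48. The call was lost then, as was that of every other gene called in UMUC3, so this loss is not particular to COL5A1.

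Transcripts of COL5A1 were not shared evenly between the UMUC3 libraries. ENST00000371817 held 97.8% of the counts in the control, 18.8% in knockdown library 1 and 99.2% in knockdown library 2, and ENST00000618395, of nearly the same length, held 80.8% in library 1 and 0% in the others. The gene sum does not depend on this split. On the transcript with most counts alone the log2 change was 1.63 with an adjusted p of 0.657.

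Of the UMUC3 members, 8 had an unadjusted p under 0.05 with a higher value (background 9.22%) and 4 with a lower one (background 7.62%). Both knockdown libraries lay above the control for 15 of 35 members and below it for 10, against 35.6% and 37.1% of all genes. DESeq2 called 11 members, 7 of them higher, among 1715 genes, and voom 0. The median log2 change was 0.36 for the members and 0 for all genes, and 0.15 with members at 0 set to a floor of 3 counts. It was 0.15 without knockdown library 1 and 0.06 without library 2. Shares of named counts were 0.193% in the control and 0.205% and 0.197% after knockdown.

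**Figure D3:**
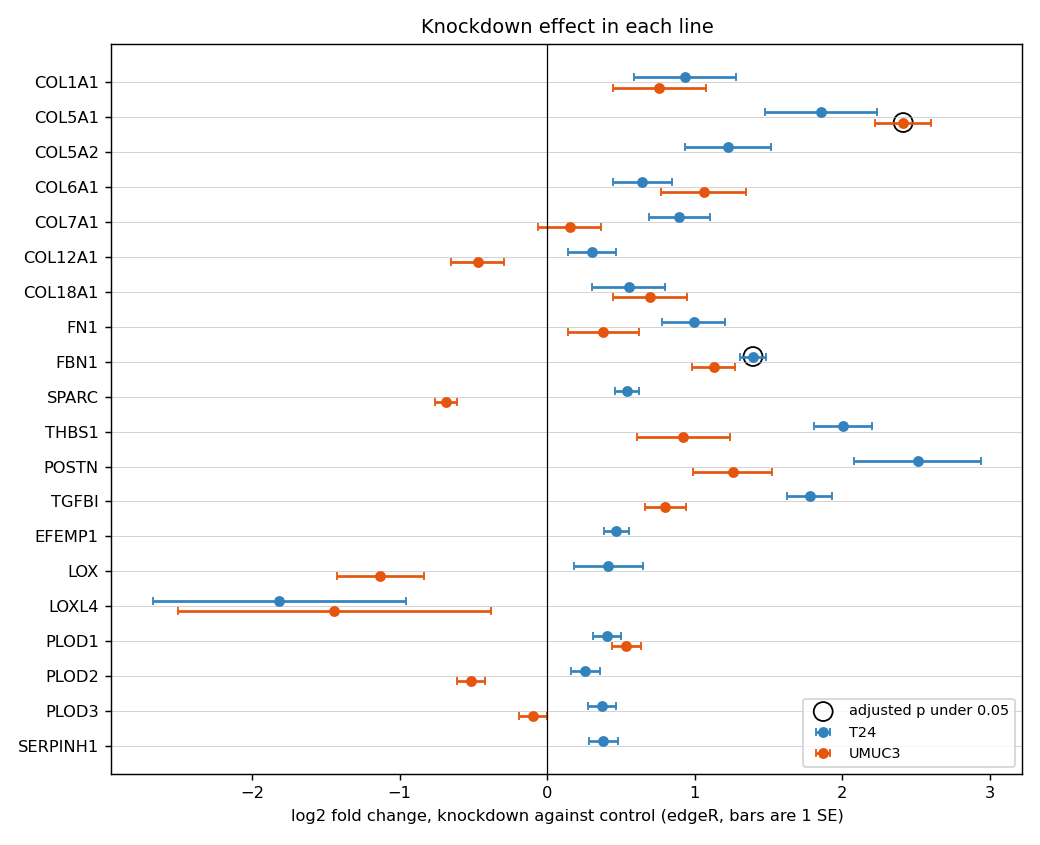
Log2 fold change of knockdown against control from edgeR in T24 (blue) and UMUC3 (orange), with bars of 1 SE, for members with an unadjusted p under 0.05 in any knockdown comparison and counts in every library of the line. Rings mark the 2 values past an adjusted p of 0.05, FBN1 in T24 and COL5A1 in UMUC3.

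The higher UMUC3 values were those of FBN1 (0.824 to 1.77 and 1.84 CPM, log2 change 1.13 ± 0.15, adjusted p = 0.0750), TGFBI (90.9 to 168 and 149 CPM, 0.80 ± 0.14), POSTN (4.15 to 10.5 and 9.38 CPM, 1.26 ± 0.27) and COL6A1 (1.06 ± 0.29). PLOD1 had 227 CPM in the control and 341 and 317 CPM after knockdown (0.54 ± 0.10), and THBS1 a log2 change of 0.92 ± 0.32 on a level near 1 CPM. Lower were SPARC, from 373 to 238 and 227 CPM (-0.69 ± 0.08, adjusted p = 0.0605), PLOD2, from 239 to 166 and 169 CPM (-0.52 ± 0.09, adjusted p = 0.117), and LOX, from 4.42 to 2.46 and 1.59 CPM (-1.13 ± 0.29). For these 9 genes the adjusted p was 0.0605 to 0.276. The lower SPARC value lay in 1 retained-intron transcript, ENST00000520687, which had 12237 counts in the control and 5179 and 5097 after knockdown. The protein-coding SPARC transcript ENST00000231061 had 8578, 8124 and 8679 counts, and alone gave a log2 change of -0.11 with an adjusted p of 0.768.

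Both lines were also fitted together, with line and knockdown as terms. No member passed the adjusted threshold, where 0.0145% of all genes did. At an unadjusted p under 0.05 the fit had 12 members higher and 1 lower, against 5.95% and 5.63% of all genes. Among the 12 were EFEMP1, with 0 counts in every UMUC3 library, and COL5A2, with 0, 0 and 4 counts there. The values of EFEMP1 and COL5A2 in this fit thus come from T24. DESeq2 called 8 members higher, and 981 genes in all. All 4 knockdown libraries stood above their own control for 11 members (background 13.3%) and below it for 2, LOXL4 and THBS2 (background 15.1%). The 11 were COL1A1, COL5A1, COL6A1, COL6A3, COL18A1, FN1, FBN1, THBS1, POSTN, TGFBI and PLOD1. For COL6A1 this holds for the gene sum and not for the protein-coding transcript. All its UMUC3 counts lay on transcripts that are not of the protein-coding type. FN1 in UMUC3 had 287, 309 and 477 counts, a log2 change of 0.38 ± 0.24. Per length its knockdown libraries lay below the control there, at 5.43 and 7.04 TPM against 7.73 TPM. COL6A3 in UMUC3 had 0 counts in the control and 24 and 33 after knockdown.

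FBN1 and COL5A1 led that fit, with log2 changes of 1.33 ± 0.13 and 2.33 ± 0.22 and an adjusted p of 0.0680 each in edgeR. Leaving out a line's lone control leaves the other line alone, and so gives no further test of both. THBS1 followed with 1.73 ± 0.27, POSTN with 1.60 ± 0.34, TGFBI with 1.24 ± 0.25, COL1A1 with 0.84 ± 0.25, COL6A1 with 0.78 ± 0.18, FN1 with 0.72 ± 0.20, COL18A1 with 0.62 ± 0.17 and PLOD1 with 0.47 ± 0.10. LOXL4, under 0.7 CPM throughout, had -1.67 ± 0.62.

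Whether the knockdown effect differed between the lines was tested as an interaction. No member passed, where 0.0579% of all genes did. Of the members 10 had an unadjusted p under 0.05 (background 13.5%), and DESeq2 called 5, and 1120 genes in all. The smallest p was that of SPARC, whose T24 minus UMUC3 difference was 1.23 ± 0.11 on the log2 scale (edgeR adjusted p = 0.0975). SPARC stood above the control in both T24 knockdown libraries, at 1.43 and 1.48 times, and below it in both UMUC3 ones, at 0.636 and 0.607 times. On the protein-coding SPARC transcript alone, which hardly differed in UMUC3, the difference was 0.52 with an adjusted p of 0.401. PLOD2 had the same pattern with a difference of 0.77 ± 0.14 (adjusted p = 0.176), as had LOX with 1.54 ± 0.38 (adjusted p = 0.253). TGFBI, with 0.98 ± 0.20 (edgeR adjusted p = 0.206), and THBS1, with 1.08 ± 0.38 (adjusted p = 0.360), stood above the control in both lines, further in T24.

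**Figure D4:**
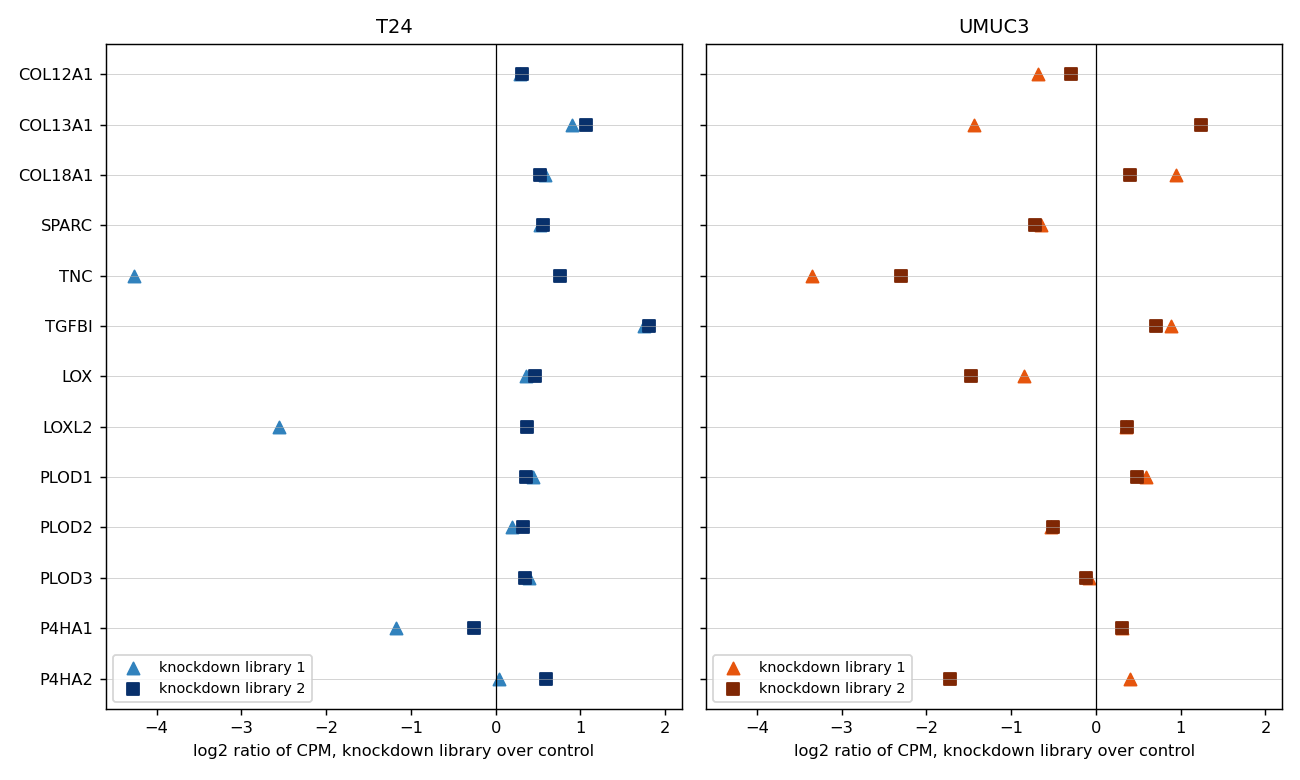
Log2 ratio of CPM in each knockdown library over the control of its line, T24 on the left and UMUC3 on the right. The 13 members shown were chosen by name, among them PLOD1 and COL18A1, which lie above the control in all 4 knockdown libraries. SPARC, PLOD2 and LOX lie to the right of 0 in T24 and to the left in UMUC3, while LOXL2 and TNC in T24 knockdown library 1 lie far to the left of library 2.

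Paired knockdown libraries disagreed in some members, of which 4 are given here after their values were seen. LOXL2 was at 85.2 CPM in T24 knockdown library 1, 0.170 times the control, and at 648 CPM in library 2, 1.3 times the control. TNC, tenascin-C, was at 12.6, 0.656 and 21.3 CPM in T24 and at 128, 12.5 and 26.1 CPM in UMUC3, where both knockdown libraries lay below the lone control. COL13A1, a transmembrane collagen, was at 13.6, 25.5 and 28.5 CPM in T24 and at 13.1, 4.87 and 31.0 CPM in UMUC3, and P4HA2 in UMUC3 was described above. For TNC in T24 library 1 all counts lay on ENST00000350763, which held 4.27% in the control, and the part of transcript assignment in these values was not tested.

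Related genes from further lists were read alongside. All 17 matrix receptor and uptake genes had positive log2 changes in T24, with a median of 0.70, where 49.2% of all genes were positive. In edgeR 9 of them had an unadjusted p under 0.05 and 0 an adjusted one. CD36 was at 0, 0 and 0.135 CPM in the T24 control and knockdown libraries, and ITGA1 at 6.24, 7.38 and 5.79 CPM, so their signs carry little. ITGA5, the fibronectin receptor chain, went from 146 to 397 and 386 CPM (log2 change 1.42 ± 0.10, edgeR adjusted p = 0.0569), ITGA2, a collagen receptor chain, from 233 to 457 and 476 CPM (1.00 ± 0.13, adjusted p = 0.109). In UMUC3, 1 of the 17 passed the adjusted threshold with a higher value and 1 with a lower one. SDC4, a heparan sulfate proteoglycan of the cell surface, rose from 226 to 570 and 564 CPM (1.33 ± 0.08, adjusted p = 0.0367), and ITGA2 fell from 195 to 60.7 and 70.0 CPM (-1.58 ± 0.12, adjusted p = 0.0431).

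Of 27 genes for collagen folding, export and trimming, 0 passed in either line or in both together, and 14 and 11 had positive changes in T24 and UMUC3. P4HA3, a further prolyl hydroxylase subunit, was at 0.639, 2.15 and 1.93 CPM in T24 and 1.5, 5.38 and 5.03 CPM in UMUC3 (both lines 1.74 ± 0.28, adjusted p = 0.145 in edgeR). P4HB, the beta subunit of prolyl hydroxylase, was at 317, 608 and 536 CPM in UMUC3 (0.85 ± 0.10, adjusted p = 0.0677). PPIB, a collagen prolyl isomerase, was at 513, 643 and 605 CPM in T24 and 457, 673 and 618 CPM in UMUC3. MIA3, which loads procollagen into carriers, was at 53.3, 72.0 and 75.7 CPM in T24, and P3H2, a prolyl 3-hydroxylase, at 52.2, 23.9 and 25.0 CPM in UMUC3, neither passing.

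Among 41 further glycoproteins and proteoglycans, of which 29 were tested, 0 passed in either line. The matricellular genes CCN1 and CCN2, targets of YAP signalling, had the smallest p in T24: CCN1 was at 726, 381 and 387 CPM (-0.92 ± 0.07, edgeR adjusted p = 0.0697) and CCN2 at 884, 447 and 471 CPM (-0.95 ± 0.13, adjusted p = 0.119). CCN2 in UMUC3 was at 299, 120 and 144 CPM (-1.18 ± 0.13, adjusted p = 0.0601), so that CCN2 stood below the control in all 4 knockdown libraries. MFAP2, of microfibrils, was at 1.38, 0.178 and 0.0985 CPM in UMUC3, and MGP at 4.56, 13 and 18.8 CPM in T24. Of 24 other interstitial collagens 11 were tested and 0 passed, the smallest p being those of COL8A2 (2.51, 0.740 and 0.841 CPM) and COL21A1 (under 0.7 CPM) in T24 and of COL10A1 and COL23A1 in UMUC3.

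Between the lines these lists held calls in both directions, to be read against 21.3% of all genes higher in T24 and 18.9% higher in UMUC3. Of 27 folding, export and trimming genes tested, 8 were higher in T24 (P4HB, SEC24D and P3H3 with the smallest p) and 8 in UMUC3 (PCOLCE2, ADAMTS2 and ADAMTS14). ADAMTS2 and ADAMTS14 trim procollagen ends. PCOLCE2 was at 1.51, 1.63 and 3.16 CPM in T24 and 60.7, 51.9 and 61.3 CPM in UMUC3. Of 17 receptors tested 8 were higher in T24, with MRC2, a collagen uptake receptor, at 143, 291 and 247 CPM against 26.3, 28.4 and 34.3 CPM, ITGA1 and SDC1, and 4 in UMUC3, with DDR2, LRP1 and ITGB1.

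Of 29 further glycoproteins and proteoglycans tested 11 were higher in T24, led by SPOCK1 (475, 564 and 639 CPM against 7.66, 12.5 and 9.15 CPM), FBLN7 and EMILIN2, and 4 in UMUC3, led by SMOC1 (91.9, 70.1 and 67.3 CPM against 0, 0.370 and 0.387 CPM), SRPX and ECM1. Of 11 further collagens tested 5 were higher in T24, among them COL9A2, COL9A3 and COL8A2, and 2 in UMUC3, COL27A1 and COL23A1.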

How the data were processed

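The authors deposited raw counts per transcript for 136953 transcripts in 6 libraries, with no normalisation; the counting rule, strand and selection are not given in the sources used here. Tools named in the submitters' processing notes, without role or order, are HISAT2 2.1.0, StringTie 1.3.3b and FastQC 0.11.5, and the build is hg38. In T24 the siRNA numbers of the titles and of the data columns are swapped, and columns were matched by the labels' descriptions. Transcripts without a gene (15038, 14.86 to 16.10% of counts) were left out and the others summed to 30717 genes. Reads of overlapping, antisense or near-identical genes cannot be told apart.

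A gene entered the test if 2 or more libraries had 10 or more counts and the 6 together 30 or more. The test was that of edgeR 4.0.16 (TMM, robust quasi-likelihood F test, Benjamini-Hochberg at 0.05, R 4.3.3). Each line, and the difference between lines, came from a 4-group fit where the spread comes from the knockdown pairs and the lone control is taken to share it; both lines together, and T24 against UMUC3, came from a fit with line and knockdown as terms. SE is the log2 fold change divided by the root of F. CPM used TMM factors, TPM the transcript lengths of GENCODE release 29. The fit was run on simulated data with 200 genes changed in T24 and the same fixed dispersion for every gene. The real knockdown pairs were not simulated, so that run gives no error rate for these data.

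Members and lists were chosen with earlier results of these data known. A member was given in every library if it passed any comparison, had 1 direction in both lines with an unadjusted p under 0.05 in both together, or had a mean of at least 20 CPM in a line. From each related list up to 3 members per direction past the threshold, otherwise 2, were named by smallest p, with a few further ones chosen after their values were seen. Alternatives were DESeq2 1.42.0, voom in limma 3.58.1, other normalisation, filter and library size, replicate blocks, leaving out libraries and single transcripts.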

Additional observations from a re-analysis of the deposited data

Results flagged for a closer look

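In 9 members both knockdown libraries of one line lay above the control and both of the other line below it. The difference between lines was tested by an interaction term in edgeR, and none passed the adjusted threshold. The unadjusted p was 0.000295 for SPARC, 0.00392 for PLOD2, 0.0121 for LOXL1, 0.0133 for LOX, 0.0231 for PLOD3, 0.0317 for COL12A1, 0.033 for COL3A1, 0.182 for P4HA1 and 0.266 for COL16A1. P4HA1 and COL3A1 were below the control in T24 and above it in UMUC3, and the other 7 were the reverse. COL3A1 and LOXL1 had 0 counts in some of these libraries.

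Transcripts without a gene, which enter no comparison, held a larger share of counts in each knockdown library than in the control of its line. The shares were 15.74% and 16.10% in T24 knockdown libraries 1 and 2, against 14.86% in the control. In UMUC3 they were 15.43% and 15.84%, against 15.42% in the control.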

How the results depend on the processing

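With 2 knockdown libraries against 1 control, the calls of the knockdown comparisons depended on the test. For members called, T24 had 1 in the reported test, 9 with DESeq2, and 0 with voom, with either replicate block, on the transcript with most counts, with edgeR's legacy quasi-likelihood fit (an alternative chosen after seeing the data) and without any 1 knockdown library (0 to 0). UMUC3 had 1, 11 with DESeq2, and 0 under the same other settings (0 to 0 without a library). Both lines together had 0, 8 with DESeq2, and 0 to 1 without a library. The 1 came with a control left out, which leaves 1 line alone and repeats that line's own call. The difference between lines had 0, and 5 with DESeq2.

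Over all genes, T24 had 28, then 43 with no filter on low counts, 980 with DESeq2, 0 with voom, 11 on the transcript with most counts and 2 with the legacy fit. UMUC3 had 134, then 224, 1715, 0, 16 and 13. Both lines had 3, then 8 with no filter, 981 with DESeq2 and 0 on the transcript with most counts. The difference had 12, then 5 with DESeq2 size factors, 35 with no filter, 1120 with DESeq2, 0 with voom, 22 on the transcript with most counts and 5 with the legacy fit. Leaving out libraries gave 0 to 0 in T24, UMUC3 and the difference, and 0 to 135 in both lines together, where the 135 is the fit without the T24 control and so that of UMUC3 alone. T24 against UMUC3 had 8329 genes, 5049 with controls only and 4757 on the transcript with most counts, and 21 to 27 members under every setting run, against 25.

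Whether the replicate numbers of the titles or of the data columns pair the libraries across lines was not settled. By title numbers the difference between siRNAs correlated between lines at -0.00138 over 20721 genes. By column numbers it is the same value with the opposite sign, 0.00138, and so no separate check. A value near 0 cannot tell wrong numbers from siRNAs that act differently in the lines. With the replicate block all 4 knockdown comparisons had 0 genes, and with title numbers the 4-group fit ran without robust estimation and in its legacy form.

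Of 988 alternative values of the members' tests reported here, 0 changed sign, 56 lost the threshold and 37 gained it. Over all 35 members and comparisons 102 of 2404 changed sign. Levels under about 1 CPM rest on few counts, and the floor for a gene at 0 was 0.0493 to 0.0537 CPM.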
